A study of Homo sapiens with 10 samples.

Results

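SEMA7A and 9 related genes were followed across a pair of liver tumour lines with and without a decoy for miR-17. The 10 genes are the semaphorins SEMA7A, SEMA3C, SEMA4B, SEMA4C and SEMA6A, the plexins PLXNA1, PLXNB1, PLXNB2 and PLXNC1, and the neuropilin NRP1. They were taken by symbol from the 19215 gene symbols of the count files, and all 10 were found. They were chosen with results of these libraries known, among them a higher SEMA7A level with the decoy. Their values between decoy arms are therefore descriptions. Where a member is said to be called there, that gives its place in a fit over all genes and is not evidence for the choice of members.

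The groups were HepG2 miR-17 TuD (3 libraries) and SK-Hep1 miR-17 TuD (2 libraries), set against HepG2 NC TuD (3 libraries) and SK-Hep1 NC TuD (2 libraries). HepG2 is a human liver tumour line that keeps hepatocyte features, and SK-Hep1 is a human line, likewise labelled hepatocellular carcinoma, that grows with a mesenchymal form. A TuD, or tough decoy, is a vector-encoded RNA whose exposed binding sites hold a microRNA and keep it from its targets, and NC TuD is the negative control. All 4 groups received virus at a multiplicity of infection of 5 in 10 µg/mL polybrene for 48 h, then 1 µg/mL puromycin, and were grown in medium with 10% fetal bovine serum. Resistant colonies were pooled after 2 weeks, so each group is 1 stable line. What the decoy did and what arose while each stable line was made cannot be told apart. The labels do not say that replicates were separate cultures, so a p-value measures only the spread between these libraries, which may be technical. Libraries were made from 150 ng of total RNA by a non-stranded kit and sequenced as paired 50 bp reads.

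Semaphorins are secreted or membrane-bound ligands, first known for steering growing axons, that also act on the shape, attachment and movement of epithelial, endothelial and immune cells. Their main receptors are plexins, whose intracellular part acts on small GTPases and through them on integrins and the actin cytoskeleton. Neuropilins have a short intracellular part and serve as co-receptors for secreted class 3 semaphorins together with plexins. SEMA7A, the only semaphorin held in the membrane by a lipid (GPI) anchor, binds plexin C1 and integrins that contain the beta 1 chain.

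A microRNA finds its targets mainly through its seed, bases 2 to 8 from the 5′ end. RefSeq (GRCh38.p14) holds 8 human mature miRNAs with the seed of miR-17-5p, of which the decoy's namesake and 3 close relatives are shown with the seed in capitals.
hsa-miR-17-5p: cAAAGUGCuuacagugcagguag
hsa-miR-20a-5p: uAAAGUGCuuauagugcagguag
hsa-miR-93-5p: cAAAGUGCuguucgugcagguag
hsa-miR-106b-5p: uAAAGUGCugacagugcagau

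The longest annotated 3′UTR of each gene in GENCODE 29 on GRCh38 was searched on the transcribed strand for GCACTTTA (an 8mer, the seed match followed by A), GCACTTT (7mer-m8) and CACTTTA (7mer-A1, the last 6 seed-match bases followed by A). An 8mer contains both shorter motifs, and a gene's shorter matches were counted only outside it. SEMA7A, SEMA4B and PLXNA1 each held 1 8mer, and the other 7 members held none of the 3 kinds. Among 13227 tested genes with an annotated 3′UTR, 705 (5.33%) held an 8mer and 31.3% held at least 1 match of any kind. The 3 sites are shown because the change in SEMA7A and SEMA4B is set against them below, with the 8mer in capitals.
SEMA7A: ctcttctcaatGCACTTTAataatgta
SEMA4B: tttaataagatGCACTTTAtgtcattt
PLXNA1: tctaggcgcaaGCACTTTAgcagtatc

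The SEMA7A match lies at chr15:74409328-74409335 on the minus strand, in the 3′UTR exon of ENST00000261918.9, and starts at base 1289 of 1335 after the stop codon. That of SEMA4B lies at chr15:90229615-90229622 on the plus strand and starts at base 972 of 1033 of the 3′UTR of ENST00000411539.6, so both are close to the end of the transcript. The PLXNA1 match lies at chr3:127036467-127036474 on the plus strand, at base 2450 of 3375 in ENST00000393409.2. These positions are on GRCh38, whereas the counts were made on hg19. A match is a run of letters and does not show that a miRNA binds there.

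Levels are CPM (the share of a library's gene counts, scaled to a common total) adjusted with the TMM factors of edgeR, and a gene was called at an adjusted p below 0.05 in a quasi-likelihood fit over all 13349 tested genes. Gene counts per library came to between 12884225 and 15076431, so 1 count is 0.0663 to 0.0776 CPM. All 10 members passed the filter on low counts, as did 18 of the 21 other human semaphorin, plexin and neuropilin genes. In bulk RNA, fewer cells expressing a gene and less RNA per cell cannot be told apart. Hepatocyte markers summed to 73.4 to 77.3 CPM in SK-Hep1 miR-17 TuD libraries, with 2 of 8 at or above 1 CPM, and to 82.5 to 98.3 CPM in SK-Hep1 NC TuD libraries, with 4 of 8. SERPINA1, at 68.7 and 64.8 CPM in the same groups, made up most of these sums, and TTR was at 0 in both. With the miR-17 decoy 1 marker was called higher and 3 lower, beside 0.667% and 0.202% of all tested genes. In HepG2 the hepatocyte markers summed to 41651 to 44236 CPM with the miR-17 decoy and 48978 to 51214 CPM with the control. There 8 of 8 were at or above 1 CPM, and 2 were called higher and 5 lower with the miR-17 decoy, beside 10.7% and 8.58% of all tested genes. SK-Hep1 also lacked defining endothelial markers: PECAM1 and KDR were at 0 in all 4 libraries, and of 7 such genes only ENG reached 1 CPM. ENG averaged 69.7 and 67.1 CPM in SK-Hep1 miR-17 TuD and NC TuD, against 5.45 and 3.42 CPM in HepG2 miR-17 TuD and NC TuD. In HepG2, 2 of the 7 reached 1 CPM with the miR-17 decoy and 4 with the control. With the control decoy, ENG was called higher in SK-Hep1 and 3 other endothelial markers lower, beside 43.9% and 42.8% of all tested genes. The 5 mesenchymal markers summed to 19660 to 20061 CPM in SK-Hep1 miR-17 TuD and 18529 to 18758 CPM in SK-Hep1 NC TuD libraries, and to 15631 to 15950 CPM in HepG2 miR-17 TuD and 14863 to 16202 CPM in HepG2 NC TuD libraries. Of these, VIM, which encodes the mesenchymal filament vimentin, averaged 9581 and 8822 CPM in SK-Hep1 miR-17 TuD and NC TuD, against 1.77 and 1.98 CPM in HepG2 miR-17 TuD and NC TuD. FN1, most of the HepG2 sum, went the other way, at 5974 CPM in SK-Hep1 NC TuD and 15464 CPM in HepG2 NC TuD. So did CDH2, at 84.4 and 98.3 CPM in the same groups. With the control decoy, 3 of the 5 were called higher and 2 lower in SK-Hep1, beside 43.9% and 42.8% of all tested genes. The 4 blood cell markers summed to at most 2.94 CPM in any library. The part of these marker differences in the results was not tested.

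SEMA7A was higher with the miR-17 decoy than with the control decoy in both lines. In HepG2 it stood at 88.3, 92.4 and 86.7 CPM in miR-17 TuD libraries and at 51.8, 49.8 and 50.7 CPM in NC TuD libraries. In SK-Hep1 it stood at 35.7 and 31.6 CPM in miR-17 TuD libraries and at 21.8 and 24.2 CPM in NC TuD libraries. Every miR-17 TuD library lay above every NC TuD library of its line, and the lowest HepG2 library lay above the highest SK-Hep1 library. The log2 fold change, miR-17 TuD over NC TuD, was 0.81 ± 0.06 (SE, n = 3 and 3) in HepG2, a 1.76-fold higher level, and 0.54 ± 0.09 (SE, n = 2 and 2) in SK-Hep1, 1.46-fold, and both were called. These put SEMA7A above 96.8% of tested genes in HepG2 and above 97.4% in SK-Hep1.

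SEMA4B, a transmembrane class 4 semaphorin, moved the same way. It had 34.2, 38.7 and 30.2 CPM in HepG2 miR-17 TuD libraries, against 22.0, 22.5 and 22.7 CPM in HepG2 NC TuD libraries. In SK-Hep1 miR-17 TuD libraries it had 19.8 and 18.0 CPM, against 15.1 and 15.0 CPM in SK-Hep1 NC TuD libraries. The arms did not overlap in either line, although the miR-17 TuD libraries of HepG2 spread more widely than their controls. The log2 fold change was 0.62 ± 0.08 in HepG2 and 0.33 ± 0.11 in SK-Hep1, and only the HepG2 value was called.

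SEMA6A, a transmembrane ligand of plexins A2 and A4, was lower with the miR-17 decoy. HepG2 miR-17 TuD libraries had 41.2, 43.9 and 42.9 CPM and HepG2 NC TuD libraries had 52.1, 54.3 and 52.0 CPM. SK-Hep1 held little of it, with 0.971 and 0.910 CPM in miR-17 TuD libraries and 1.33 and 1.44 CPM in NC TuD libraries. The arms did not overlap in either line, but only the HepG2 difference was called. The log2 fold change was -0.31 ± 0.06 in HepG2 and -0.56 ± 0.34 in SK-Hep1. Traces of hepatocyte RNA also differed between the SK-Hep1 arms: AFP averaged 0.656 CPM in miR-17 TuD and 4.67 CPM in NC TuD libraries, and the level in SK-Hep1 NC TuD was 0.0625% of that in HepG2 NC TuD. SERPINA1, another hepatocyte marker, averaged 68.7 CPM in SK-Hep1 miR-17 TuD and 64.8 CPM in SK-Hep1 NC TuD, against 4813 CPM in HepG2 NC TuD. Whether such traces bear on the SEMA6A values in SK-Hep1 was not tested. Annotated antisense genes share 2.45% and 0.53% of its exon bases.

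SEMA4C and SEMA3C did not separate by decoy in HepG2. SEMA4C, a ligand of plexin B2, had 67.0, 71.2 and 62.3 CPM in HepG2 miR-17 TuD libraries and 70.2, 71.5 and 81.1 CPM in HepG2 NC TuD libraries, which overlap. In SK-Hep1 it had 15.6 and 15.5 CPM in miR-17 TuD libraries and 14.6 and 16.1 CPM in NC TuD libraries. Its log2 fold change was -0.15 ± 0.06 in HepG2 and 0.02 ± 0.11 in SK-Hep1, neither called. SEMA3C, a secreted ligand that acts through neuropilins and plexins, had only 1.12, 0.669 and 1.82 CPM in HepG2 miR-17 TuD libraries and 1.02, 1.51 and 1.02 CPM in HepG2 NC TuD libraries. In SK-Hep1 it reached 179 and 189 CPM in miR-17 TuD libraries and 173 and 167 CPM in NC TuD libraries. The SK-Hep1 arms were separate by a small margin, with a log2 fold change of 0.11 ± 0.06 that was not called, and the HepG2 value was 0.01 ± 0.30.

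**Figure D1:**
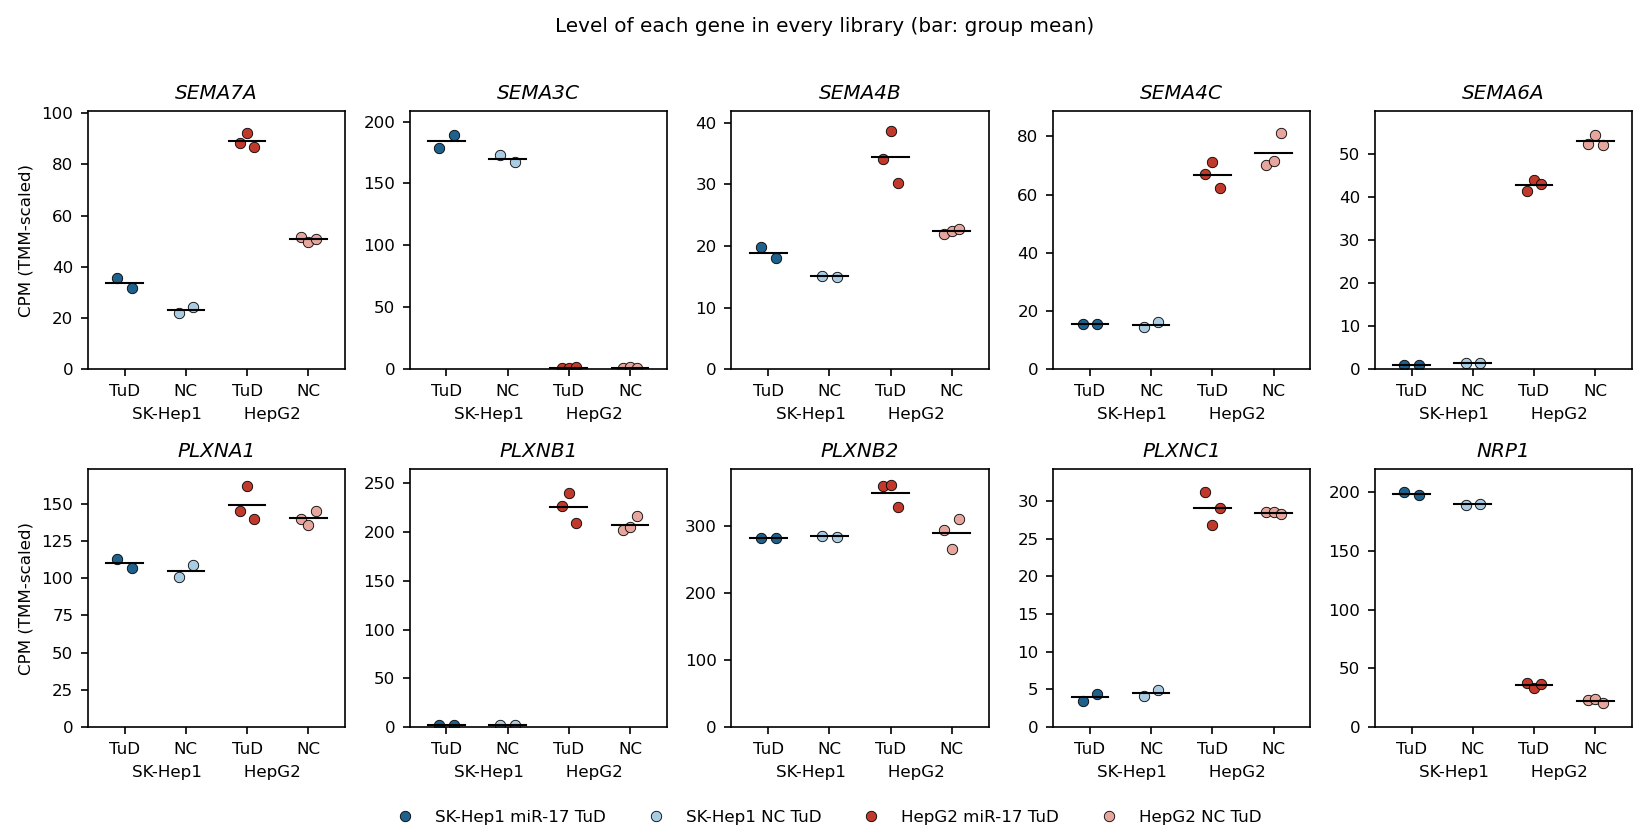
CPM of each of the 10 genes in every library, on axes that start at 0, with the group mean as a bar and SK-Hep1 left of HepG2. SEMA7A reads 86.7 to 92.4 CPM in HepG2 miR-17 TuD against 49.8 to 51.8 CPM in HepG2 NC TuD, while SEMA3C and NRP1 are high in SK-Hep1 and PLXNB1 and SEMA6A are high in HepG2.

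Among the receptors, PLXNB2 had the highest CPM in every group. PLXNB2, which binds SEMA4C and the secreted ribonuclease angiogenin, had 359, 361 and 327 CPM in HepG2 miR-17 TuD libraries and 293, 265 and 310 CPM in HepG2 NC TuD libraries. In SK-Hep1 it had 281 and 282 CPM in miR-17 TuD libraries and 285 and 283 CPM in NC TuD libraries. The HepG2 arms did not overlap, and the SK-Hep1 arms were separate in the other direction by a narrow margin. The log2 fold change was 0.27 ± 0.04 in HepG2, which was called, and -0.01 ± 0.05 in SK-Hep1, which was not.

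PLXNB1, the receptor of SEMA4D, which binds the exchange factors ARHGEF11 and ARHGEF12, had 227, 240 and 209 CPM in HepG2 miR-17 TuD libraries, against 202, 205 and 216 CPM in HepG2 NC TuD libraries. SK-Hep1 had 2.31 and 1.82 CPM in miR-17 TuD libraries and 2.18 and 2.23 CPM in NC TuD libraries. The arms overlapped in both lines. Its log2 fold change of 0.12 ± 0.04 in HepG2 was called, but 12 of 17 other processing settings lost the call, 8 of them by leaving out 1 library. In SK-Hep1 it was -0.10 ± 0.26.

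PLXNA1, which signals for class 3 semaphorins together with neuropilins, had 145, 162 and 140 CPM in HepG2 miR-17 TuD libraries and 140, 136 and 145 CPM in HepG2 NC TuD libraries. In SK-Hep1 it had 113 and 107 CPM in miR-17 TuD libraries and 101 and 109 CPM in NC TuD libraries. The arms overlapped in both lines, although its 3′UTR holds an 8mer like those of SEMA7A and SEMA4B. Its log2 fold change was 0.09 ± 0.05 in HepG2 and 0.06 ± 0.06 in SK-Hep1, neither called.

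PLXNC1, the plexin that binds SEMA7A, did not separate by decoy. HepG2 miR-17 TuD libraries had 31.2, 26.8 and 29.0 CPM and HepG2 NC TuD libraries had 28.5, 28.5 and 28.2 CPM. SK-Hep1 miR-17 TuD libraries had 3.51 and 4.34 CPM and SK-Hep1 NC TuD libraries had 4.07 and 4.86 CPM. The arms overlapped in both lines, so the ligand SEMA7A was higher with the decoy while this receptor was not called. Its log2 fold change was 0.03 ± 0.08 in HepG2 and -0.19 ± 0.19 in SK-Hep1. In GENCODE 29, 1.79% of its exon bases also lie in exons of CEP83 on the other strand, whose reads a library without strand cannot tell apart.

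NRP1, co-receptor for class 3 semaphorins and for vascular endothelial growth factor, separated by decoy in HepG2. It had 37.9, 33.5 and 37.0 CPM in HepG2 miR-17 TuD libraries and 23.0, 24.0 and 20.7 CPM in HepG2 NC TuD libraries. In SK-Hep1 it had 200 and 197 CPM in miR-17 TuD libraries and 189 and 190 CPM in NC TuD libraries. The arms did not overlap in either line, but the gap in SK-Hep1 was small beside its level. The log2 fold change was 0.68 ± 0.07 in HepG2, a 1.60-fold higher level that was called, and 0.06 ± 0.05 in SK-Hep1, which was not. An annotated antisense gene shares 4.87% of its exon bases.

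Of the 10 members, 5 were called higher and 1 lower with the miR-17 decoy in HepG2, where 19.3% of all tested genes were called (10.7% higher and 8.58% lower). The HepG2 arms of 5 members did not overlap, 4 higher and 1 lower, against 31.0% of all tested genes (16.1% higher and 14.9% lower). In SK-Hep1 only SEMA7A was called, where 0.869% of tested genes were (0.667% higher and 0.202% lower). The SK-Hep1 arms of 6 members did not overlap, 4 higher and 2 lower, against 40.4% of tested genes (18.4% higher and 21.9% lower). The median log2 fold change over the members was 0.10 in HepG2 and 0.04 in SK-Hep1, beside 0.000 and -0.005 over all tested genes. Because the members were chosen with these contrasts known, nothing is read from their counts. The SK-Hep1 response was lower than the HepG2 response for NRP1, with a difference of -0.62 ± 0.09 on the log2 scale, and for PLXNB2, with -0.28 ± 0.07. Both were called, where 3.75% of tested genes were (1.24% higher and 2.51% lower). For SEMA7A the difference was -0.27 ± 0.10 and for SEMA4B -0.29 ± 0.14, and neither was called. The PLXNB2 call was lost in 2 of 16 other settings, with a replicate block and on the deposited log2 matrix.

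**Figure D2:**
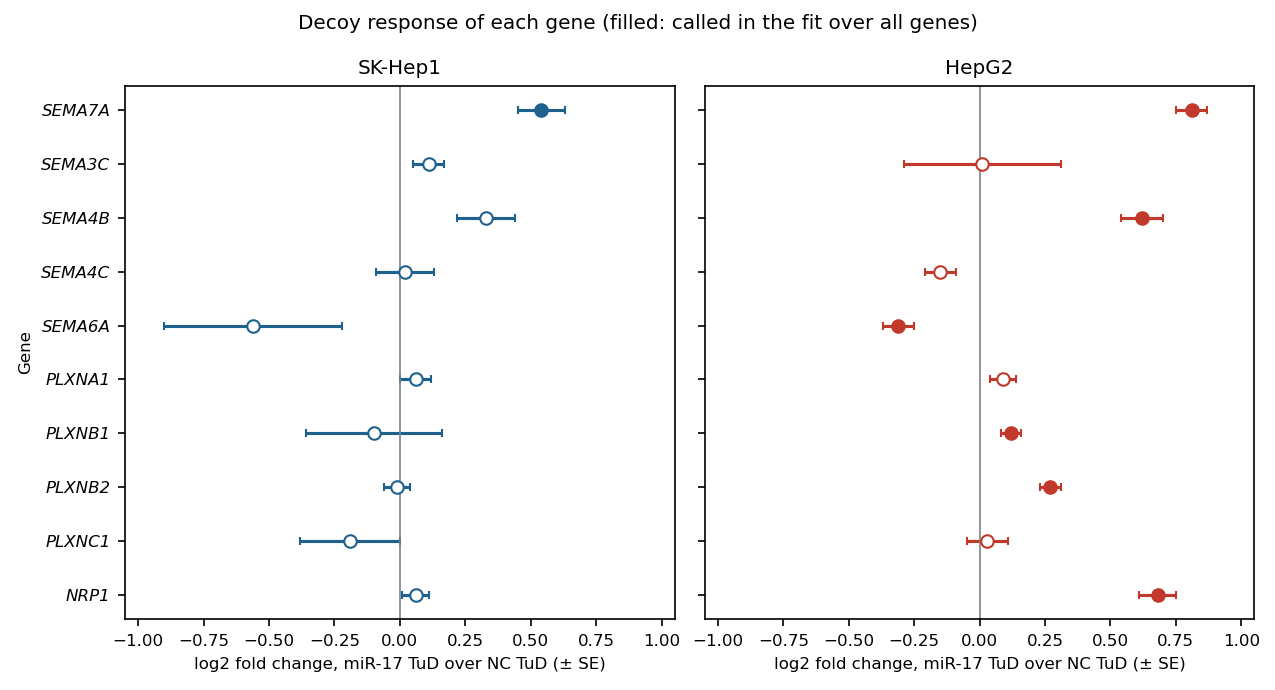
Log2 fold change, miR-17 TuD over NC TuD, with its SE, for each gene in SK-Hep1 (left) and HepG2 (right), with filled points for called genes. SEMA7A is the only gene filled in both panels, at 0.54 in SK-Hep1 and 0.81 in HepG2, and NRP1 lies at 0.06 in SK-Hep1 and 0.68 in HepG2.

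The change of SEMA7A was set beside that of other genes with an 8mer. In HepG2, 174 of 705 genes with an 8mer (24.7%) were called higher and 35 lower, with a median log2 fold change of 0.063. Of 9091 genes with none of the 3 kinds of match, 837 (9.21%) were called higher and 841 lower, with a median of -0.001. Ordered from the highest log2 fold change of the 705, SEMA7A was at rank 27, SEMA4B at rank 46 and PLXNA1 at rank 318. In SK-Hep1, 41 of 705 (5.82%) were called higher and 0 lower with a median of 0.033, and 29 of 9091 (0.319%) were called higher and 17 lower with a median of -0.009. There SEMA7A was at rank 15, SEMA4B at rank 61 and PLXNA1 at rank 300. So 3 genes of this family with the same 8 letters held different places among genes with an 8mer. NRP1, PLXNB2 and PLXNB1, with none of the 3 kinds in their longest 3′UTR, were also called higher in HepG2, though not in SK-Hep1. Another coding transcript of NRP1, ENST00000432372.6, does hold a 7mer-m8 in its 3′UTR, at chr10:33212931-33212937 on the minus strand. The HepG2 log2 fold change of NRP1, 0.68, was above that of SEMA4B, 0.62. Genes with and without a match were not matched for 3′UTR length, and the part of the 8mer in these changes was not tested.

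To see how levels compare among the 10 members, CPM were divided by the length of each gene's merged exons in kilobases. Among the members PLXNB2 led in all 4 groups, at 38.8 CPM per kb in SK-Hep1 miR-17 TuD and 39.1 in SK-Hep1 NC TuD, and at 48.1 in HepG2 miR-17 TuD and 39.9 in HepG2 NC TuD. In HepG2 miR-17 TuD it was followed, among the members, by SEMA7A at 23.5 ± 0.782 and PLXNB1 at 23.1 ± 1.56 CPM per kb (SD, n = 3), whose libraries overlapped. In HepG2 NC TuD, PLXNB1 came next at 21.4, and SEMA7A at 13.4, PLXNA1 at 12.8 and SEMA4C at 12.1 CPM per kb overlapped with their neighbours in that order. In HepG2, SEMA7A libraries therefore overlapped with those of PLXNB1 with the miR-17 decoy and with those of PLXNA1 with the control decoy. SEMA6A at 4.82, SEMA4B at 3.20, PLXNC1 at 2.87, NRP1 at 1.96 and SEMA3C at 0.189 CPM per kb completed the order in HepG2 NC TuD, with no overlap between neighbours.

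The SK-Hep1 order was different. After PLXNB2 came SEMA3C at 29.3 CPM per kb with the miR-17 decoy and 27.2 with the control decoy, NRP1 at 17.2 and 16.5, PLXNA1 at 10.0 and 9.60, and SEMA7A at 8.85 and 6.05. SEMA4B and SEMA4C followed at 2.70 and 2.53 CPM per kb in miR-17 TuD, and changed places in NC TuD, where SEMA4C was at 2.49 and SEMA4B at 2.15. PLXNC1 at 0.397, PLXNB1 at 0.212 and SEMA6A at 0.0858 CPM per kb were last in miR-17 TuD, as they were in NC TuD at 0.452, 0.227 and 0.127. No neighbours overlapped in either SK-Hep1 group. Among all 20 semaphorins, SEMA7A ranked 2 in SK-Hep1 miR-17 TuD, behind SEMA3C, and 3 in SK-Hep1 NC TuD, behind SEMA3C and SEMA3D. It ranked 4 in both HepG2 groups, behind SEMA3B, SEMA6B and SEMA4G. In HepG2 miR-17 TuD its libraries, at 22.8 to 24.3 CPM per kb, overlapped with those of SEMA4G, at 24.1 to 25.4.

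**Figure D3:**
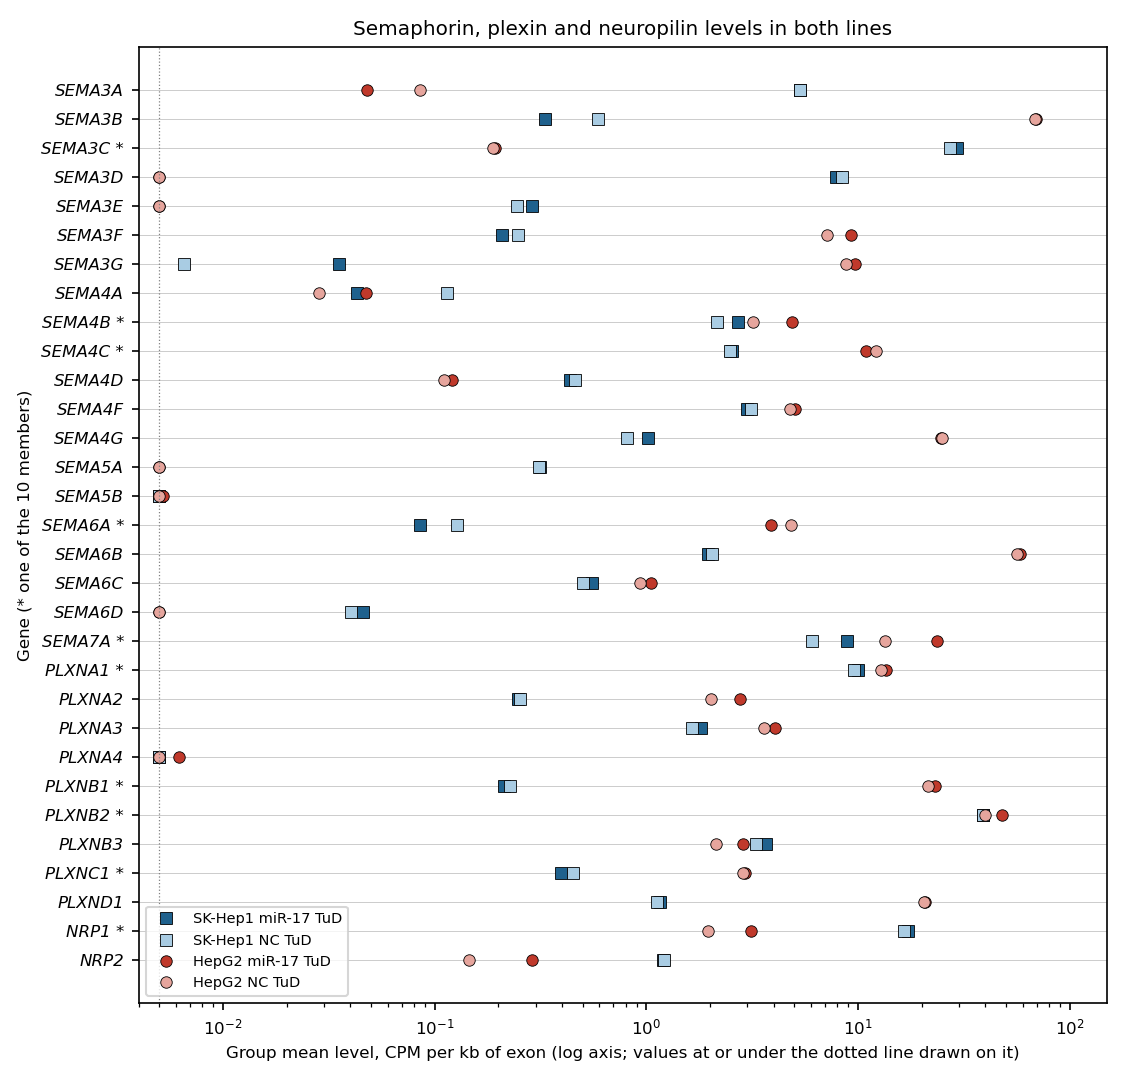
Mean level of 31 semaphorin, plexin and neuropilin genes in CPM per kb of exon, on a log axis on which the lowest values are drawn at a dotted line, with squares for SK-Hep1, circles for HepG2 and a darker fill for miR-17 TuD. SEMA3C lies at 27.2 in SK-Hep1 NC TuD and 0.189 in HepG2 NC TuD, while PLXNB2 lies at 39.1 and 39.9 in the same groups.

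The comparison of lines, SK-Hep1 over HepG2, was made within each decoy arm. With the control decoy 86.7% of all tested genes were called (43.9% higher and 42.8% lower in SK-Hep1), so a call alone says little, and 9 of 10 members were called, 2 higher and 7 lower. The same 9 members had no overlap between the lines, against 90.4% of tested genes (46.1% higher and 44.3% lower). SEMA3C averaged 170 ± 3.90 CPM in SK-Hep1 NC TuD (SD, n = 2), against 1.18 ± 0.283 CPM in HepG2 NC TuD (SD, n = 3), a log2 fold change of 7.17 ± 0.11 (SE, adjusted p = 6.87e-53). NRP1 averaged 190 ± 0.882 CPM in SK-Hep1 NC TuD and 22.6 ± 1.71 CPM in HepG2 NC TuD, a log2 fold change of 3.07 ± 0.06 (adjusted p = 6e-47). The secreted ligand and its co-receptor were thus both far higher in SK-Hep1, and no library of the lines overlapped for either.

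PLXNB1 and SEMA6A lay at the other end. PLXNB1 averaged 2.21 ± 0.0387 CPM in SK-Hep1 NC TuD and 208 ± 7.33 CPM in HepG2 NC TuD, 93.9-fold lower in SK-Hep1 (adjusted p = 1.42e-52). SEMA6A was 37.7-fold lower (adjusted p = 4.01e-41) and PLXNC1 6.33-fold lower (adjusted p = 3.08e-28) in SK-Hep1 NC TuD. SEMA4C was 4.83-fold, SEMA7A 2.20-fold, SEMA4B 1.49-fold and PLXNA1 1.33-fold lower, with adjusted p-values of 2.88e-33, 7.06e-21, 6.23e-07 and 5.33e-10 in that order. So SEMA7A was lower in SK-Hep1 along with its plexin.

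PLXNB2 was the member that was not called, with a log2 fold change of -0.03 ± 0.05 (adjusted p = 0.574). With the miR-17 decoy in both lines, 10 of 10 members were called, 2 higher and 8 lower, against 87.3% of tested genes (44.1% higher and 43.1% lower), since PLXNB2 was then lower in SK-Hep1 with -0.31 ± 0.05 (adjusted p = 1.03e-07). The libraries of none of the 10 overlapped between the lines, against 90.3% of tested genes without overlap (45.9% higher and 44.4% lower). The gap in SEMA7A was 2.65-fold with the miR-17 decoy, and that in NRP1 was 5.49-fold, in the same directions as with the control decoy.

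The other 21 genes of the family, which were not chosen by value, include 18 that were tested. In HepG2, 4 of the 18 were called higher and 0 lower with the miR-17 decoy, beside 10.7% higher and 8.58% lower over all tested genes (6 higher and 1 lower at an unadjusted p below 0.05, 4 and 0 by DESeq2, 3 and 1 by limma on the deposited log2 matrix). NRP2, the second neuropilin, had 4.34, 3.14 and 4.47 CPM in HepG2 miR-17 TuD libraries and 2.19, 1.83 and 2.04 CPM in HepG2 NC TuD libraries, a log2 fold change of 0.97 ± 0.20 (adjusted p = 0.000258). NRP1, the other neuropilin, was also called higher in HepG2. The longest 3′UTR of NRP2 holds a 7mer-m8 at chr2:205776591-205776597 on the plus strand, at base 65 of 3188 in ENST00000272849.7. Of tested genes with an annotated 3′UTR, 21.9% held at least 1 7mer-m8. The others called higher, PLXNA2, PLXNB3 and SEMA3F, held none of the 3 kinds in their longest 3′UTR. Among genes not called in HepG2, PLXNA3, SEMA4F and SEMA4G held a 7mer-m8, as did SEMA3E and SEMA5A, which were at 0 CPM in both HepG2 groups. The HepG2 arms of PLXNA3 did not overlap, with a log2 fold change of 0.16 ± 0.07 (adjusted p = 0.0892). PLXNA2, a receptor of SEMA6A, rose by 0.46 ± 0.07 on the log2 scale to 38.2 ± 1.42 CPM, against 27.9 ± 1.33 CPM in HepG2 NC TuD (SD, n = 3 each, adjusted p = 1.37e-06). PLXNB3 rose by 0.43 ± 0.09 (adjusted p = 0.000392). SEMA3F, a secreted ligand of NRP2, had 44.7, 46.5 and 42.6 CPM in HepG2 miR-17 TuD libraries and 32.0, 31.2 and 40.4 CPM in HepG2 NC TuD libraries, a log2 fold change of 0.37 ± 0.07 (adjusted p = 0.000151, but 0.163 on the deposited log2 matrix). One control library of SEMA3F lay close to the miR-17 TuD libraries.

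In SK-Hep1, 0 of the same 18 genes were called by edgeR, 0 higher and 2 lower had an unadjusted p below 0.05, DESeq2 called 0, and limma on the deposited log2 matrix called 1 higher and 1 lower. Over all tested genes 0.869% were called by edgeR. NRP2 had 18.4 and 14.9 CPM in SK-Hep1 miR-17 TuD libraries and 16.7 and 16.9 CPM in SK-Hep1 NC TuD libraries, a log2 fold change of -0.01 ± 0.12. The difference between the lines' responses was called for NRP2, at -0.98 ± 0.24 (adjusted p = 0.00704), as it was for NRP1. Without SK-Hep1 miR-17 TuD replicate 2 it was -0.83 with an adjusted p of 0.0554, and on the deposited log2 matrix -0.97 with an adjusted p of 0.0651.

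Between the lines, 8 of the 18 were called higher and 10 lower in SK-Hep1 with the control decoy, beside 43.9% higher and 42.8% lower over all tested genes. Of the secreted class 3 ligands besides SEMA3C, SEMA3A was 61.9-fold higher in SK-Hep1 NC TuD. SEMA3D had 1998 counts in the SK-Hep1 NC TuD libraries and 0 in those of HepG2 NC TuD, at least 313-fold higher with 3 counts allowed per library, and SEMA3E (61 counts against 0) was at least 9.57-fold higher. SEMA3B and SEMA3F were 116-fold and 28.9-fold lower in SK-Hep1 NC TuD. SEMA3G had 1 count in SK-Hep1 NC TuD and 1770 in HepG2 NC TuD, a ratio of 1253 (exact 95% interval 225 to 49537, counting error only). With the member SEMA3C counted, 4 class 3 ligands were higher in SK-Hep1 and 3 were higher in HepG2. This split lies near the 43.9% higher and 42.8% lower over all tested genes, so nothing is read from it.

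Among the membrane-bound ligands, SEMA4G was 30.6-fold, SEMA6B 27.6-fold, SEMA6C 1.87-fold and SEMA4F 1.52-fold lower in SK-Hep1 NC TuD. SEMA5A (112 counts against 0) was at least 17.6-fold higher in SK-Hep1 NC TuD, SEMA4D, the ligand of plexin B1, was 4.14-fold higher, and SEMA4A was 3.78-fold higher at under 1 CPM in both lines. The plexins PLXND1, PLXNA2 and PLXNA3 were 18.4-fold, 7.96-fold and 2.20-fold lower in SK-Hep1 NC TuD, while PLXNB3 was 1.54-fold and NRP2 8.27-fold higher. Adjusted p-values of these 18 genes ran up to 0.00307, for SEMA4A. The SEMA6C log2 fold change of -0.90 was -0.45 without SK-Hep1 NC TuD replicate 2, where the call was lost (adjusted p = 0.0644), and -1.50 without SK-Hep1 NC TuD replicate 1. With the miR-17 decoy SEMA4A was not called (adjusted p = 0.807) and the other 17 were called in the same direction.

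Downstream genes were taken from 3 lists of pathway members. Of 6 tested co-receptors and partners, 3 were called higher and 0 lower with the miR-17 decoy in HepG2, beside 10.7% and 8.58% over all tested genes (3 and 0 at an unadjusted p below 0.05, 2 and 0 by DESeq2, 1 and 0 by limma on the deposited log2 matrix). ERBB2, a receptor kinase that associates with plexin B1, averaged 200 ± 7.36 CPM in HepG2 miR-17 TuD and 169 ± 6.31 CPM in HepG2 NC TuD, a log2 fold change of 0.24 ± 0.04 (adjusted p = 8.48e-06). ITGB1, the integrin beta 1 chain that SEMA7A binds, averaged 552 ± 27.4 CPM in HepG2 miR-17 TuD and 508 ± 20.2 CPM in HepG2 NC TuD, with 0.12 ± 0.04 (adjusted p = 0.0101), a call lost in 4 of 17 other settings. MST1R, a kinase related to MET, was at 0.974 ± 0.207 CPM in HepG2 miR-17 TuD and 0.398 ± 0.101 CPM in HepG2 NC TuD, with 1.26 ± 0.44 (adjusted p = 0.0348), and lost its call in 7 of 16. The median of the list was 0.09. In SK-Hep1, 0 of the 6 were called by edgeR or DESeq2, and 0 had an unadjusted p below 0.05. Over all tested genes only 0.869% were called there by edgeR, so a list of this size says little.

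Of 13 GTPases, exchange factors and GTPase-activating proteins, 3 were called higher and 1 lower in HepG2 (3 and 0 by DESeq2, 3 and 1 by limma on the deposited log2 matrix), beside the same 10.7% and 8.58%, with a median log2 fold change of 0.06. RRAS, the Ras-family GTPase on which plexins act, averaged 6.38 ± 0.311 CPM in HepG2 miR-17 TuD and 4.24 ± 0.879 CPM in HepG2 NC TuD, a log2 fold change of 0.58 ± 0.14 (adjusted p = 0.00215). FARP1 rose by 0.11 ± 0.04 (adjusted p = 0.0315) and ARHGEF12, the exchange factor bound by plexin B1, by 0.12 ± 0.04 (adjusted p = 0.0348), and these calls were lost in 6 and 7 of 17 other settings. In SK-Hep1, 0 of the 13 were called by edgeR or DESeq2, beside 0.869% of all tested genes called by edgeR, and 1 had an unadjusted p below 0.05.

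Of 18 tested kinases and cytoskeletal effectors, 6 were called higher and 1 lower in HepG2 (4 and 0 by DESeq2, 4 and 1 by limma on the deposited log2 matrix), again beside 10.7% and 8.58%, with a median of 0.15. MICAL2, an oxidase that takes actin filaments apart, averaged 32.3 ± 1.17 CPM in HepG2 miR-17 TuD and 23.0 ± 2.34 CPM in HepG2 NC TuD, a log2 fold change of 0.49 ± 0.07 (adjusted p = 3.04e-07). LIMK1, the kinase that inactivates cofilin, averaged 50.7 ± 1.73 CPM in HepG2 miR-17 TuD and 37.7 ± 2.87 CPM in HepG2 NC TuD, with 0.42 ± 0.06 (adjusted p = 3.29e-07). GIPC1, an adaptor that binds the tail of NRP1, rose by 0.31 ± 0.06 (adjusted p = 2.37e-05). LIMK1 was the 1 gene of the list called in SK-Hep1, where 0.869% of all tested genes were called. It averaged 80.3 ± 2.23 CPM in SK-Hep1 miR-17 TuD and 64.4 ± 1.77 CPM in SK-Hep1 NC TuD, with 0.32 ± 0.07 (adjusted p = 0.00273). That call was lost without replicate 1 of either SK-Hep1 arm (adjusted p = 0.121 without NC TuD replicate 1 and 0.141 without miR-17 TuD replicate 1) and on the deposited log2 matrix (adjusted p = 0.0588). The response of GIPC1 was lower in SK-Hep1 than in HepG2 by a called difference of -0.35 ± 0.08 (adjusted p = 0.00277), while those of MICAL2 (-0.33) and ROCK2 (-0.24) were called but lost the call in 8 and 9 of 16 other settings.

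Between the lines with the control decoy, 3 of 6 partners were called higher and 3 lower in SK-Hep1, 8 of 13 GTPases and regulators higher and 4 lower, and 8 of 18 effectors higher and 8 lower. These shares lie beside 86.7% of all tested genes called. L1CAM, an adhesion molecule that joins NRP1 in the SEMA3A receptor, had a log2 fold change of 5.12 ± 0.05 (adjusted p = 7.24e-61), MET 1.37 ± 0.05 (adjusted p = 9.43e-35) and ITGB1 1.11 ± 0.04 (adjusted p = 2.33e-34). RRAS had 3.93 ± 0.10, RAP1B 1.68 ± 0.05 and FARP1 -1.56 ± 0.05, with adjusted p-values up to 1.33e-37. DPYSL3 and DPYSL2, of the collapsin response mediator family that passes on SEMA3A signals in neurons, had 8.10 ± 0.16 and 1.62 ± 0.05. MICAL2 had 2.43 ± 0.06, and the adjusted p-values of these genes ran up to 2.34e-38. DPYSL3 averaged 77.7 ± 3.52 CPM in SK-Hep1 NC TuD and 0.278 ± 0.126 CPM in HepG2 NC TuD (SD). The size of its fold thus rests on a low HepG2 level. With the miR-17 decoy in both lines the counts were 3 and 3, 8 and 5, and 8 and 8, beside 87.3% of all tested genes called. The same 9 genes had the same signs, from 7.43 for DPYSL3 to -1.67 for FARP1.

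Genes whose pattern was most like that of SEMA7A were sought among the 10262 tested genes averaging log2 CPM 3 or more, by Pearson's r over the 10 libraries after log2 CPM were centred on the mean of each line. Of the 5 highest, 4 are given: CCND1 (r = 0.985), IL8 (0.975), TBC1D9 (0.974) and ZNFX1 (0.974). The points share their libraries and the decoy arms, so genes that differ by arm in both lines score high. CCND1, a G1 cyclin, had a log2 fold change of 0.25 ± 0.03 in HepG2 and 0.13 ± 0.04 in SK-Hep1, and the chemokine gene IL8 had 1.52 ± 0.20 and 0.67 ± 0.06 in the same lines. TBC1D9 had 0.91 ± 0.06 in HepG2 and 0.52 ± 0.09 in SK-Hep1, and ZNFX1 had 0.85 ± 0.05 and 0.49 ± 0.05. On the same measure SEMA4B had an r of 0.96 with SEMA7A, NRP1 0.87, PLXNB2 0.75, PLXNA1 0.65, PLXNB1 0.38, SEMA3C -0.04, PLXNC1 -0.19, SEMA4C -0.45 and SEMA6A -0.90.

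**Figure D4:**
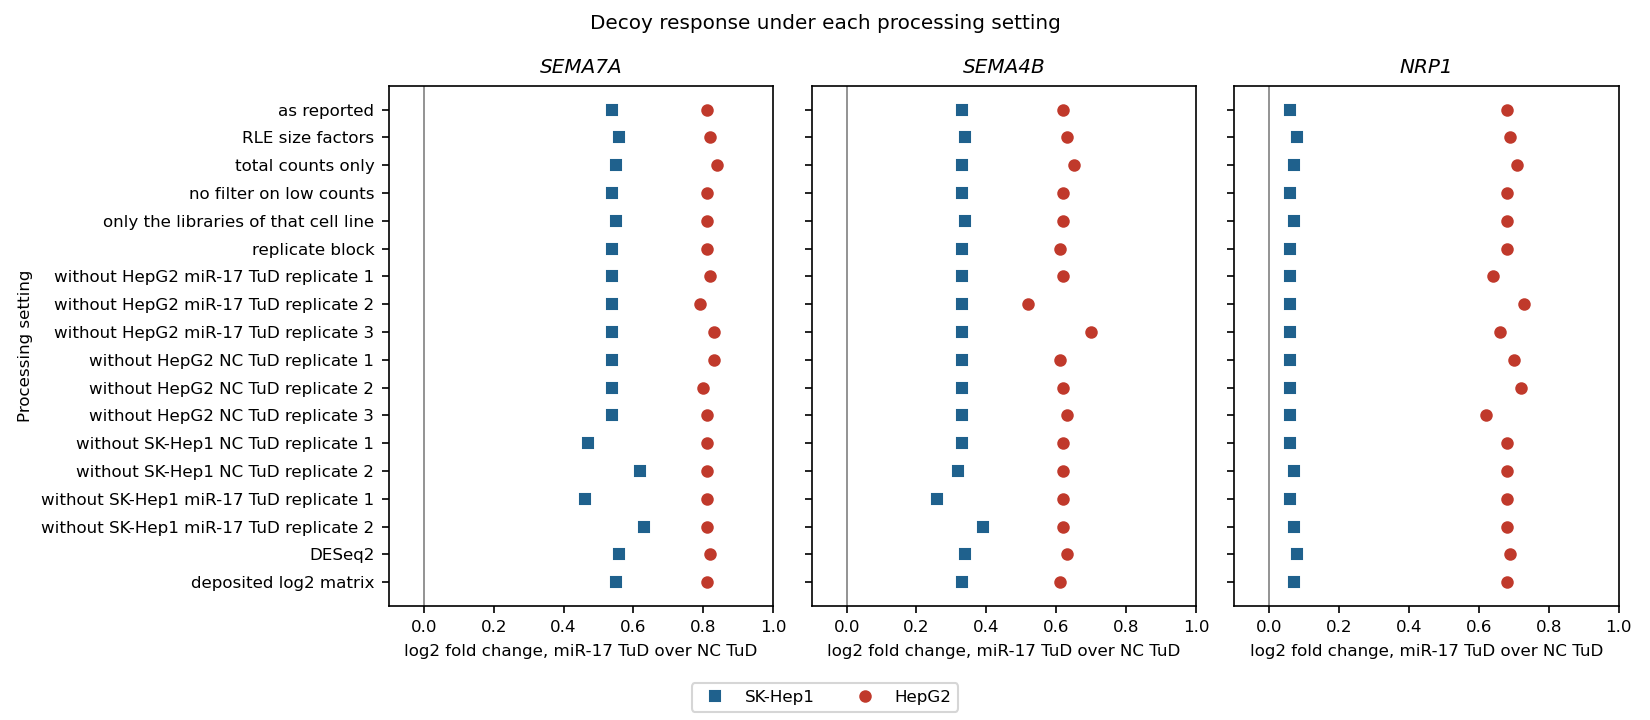
Log2 fold change, miR-17 TuD over NC TuD, of SEMA7A, SEMA4B and NRP1 as reported and under 17 other processing settings, with squares for SK-Hep1 and circles for HepG2. SEMA7A stays between 0.46 and 0.63 in SK-Hep1 and between 0.79 and 0.84 in HepG2.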

How the data were processed

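The 10 members, the lists and the tests were chosen with earlier results of these data known. The authors deposited, for each library, an unnormalised count of read pairs or reads per gene, and for the series a log2 matrix. The submitters' processing notes list STAR, HTSeq 0.5.4p5, limma and the build hg19. Bowtie/TopHat, RSEM and a mouse genome stand in the series text instead, but the summary entries in the files are those of HTSeq and the symbols are human. Summary entries naming no gene (11.6% to 14.1% of a column outside genes, 0.584% to 0.619% ambiguous, 4.48% to 5.04% not uniquely aligned and 2.43% to 2.87% not aligned) were left out. In the deposited log2 matrix, values equal log2 of the count plus 0.5 over 1 effective library size per library.

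Counts were filtered with filterByExpr by group, scaled by TMM and fitted with edgeR 4.0.16 (glmQLFit, robust, 4 group means, R 4.3.3). Tests were two-sided, p-values were adjusted by Benjamini-Hochberg over 13349 genes, and the script was tested on simulated data. SE is the log2 fold change over the root of F, and CPM errors are SD. Replicate pairs within a group differed by more than counting error.

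Genes named are the members, each family gene called in a contrast, up to 3 called genes per list and contrast with the smallest p, and the 5 genes most like SEMA7A, of which 1 is not reported here. Gene models and 3′UTRs come from GENCODE 29 (GRCh38). Of the 19215 symbols, 18293 were found in GENCODE as written, 722 through a RefSeq synonym, and 200 were not found. Alternatives were RLE factors, total counts, no filter, 1 line at a time, a replicate block, leaving out each of 10 libraries, DESeq2 1.42.0, limma 3.58.1 on the deposited log2 matrix, and other transcripts.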

Additional observations from a re-analysis of the deposited data

Results flagged for a closer look

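For 3 genes the decoy response itself differed between the lines by the test of the difference in edgeR over all genes. NRP1 was higher with the miR-17 decoy in HepG2, and its SK-Hep1 response was lower than that by 0.62 on the log2 scale (-0.62 ± 0.09), with a range of -0.67 to -0.56 over the alternatives. PLXNB2 had a difference of -0.28 ± 0.07 and NRP2 one of -0.98 ± 0.24. NRP1 and PLXNB2 were chosen with these results known, so their differences are descriptions, and NRP2 is among the genes left by that choice. With 2 or 3 libraries a group, no test for an outlying library could be made.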

How the results depend on the processing

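The log2 fold change of SEMA7A ranged from 0.79 to 0.84 in HepG2 and from 0.46 to 0.63 in SK-Hep1 over 17 alternatives. Of 820 member values under the alternatives, 13 changed sign, 11 of them when 1 library was left out, and 0 of the 13 were of a value called as reported. They were of SEMA3C and PLXNC1 in HepG2, SEMA4C and PLXNB1 in SK-Hep1, SEMA3C and PLXNA1 in the difference between lines (SEMA3C in HepG2 moved from 0.01 to -0.40 without miR-17 TuD replicate 3), and PLXNB2 between the lines with the control decoy (0.03 with total counts only, and -0.09 to 0.02 when 1 library was left out). Genes called in SK-Hep1 numbered 274 in a fit of that line's libraries alone and 49 to 171 without 1 library, against 116 (49 without miR-17 TuD replicate 1, 70 without replicate 2, 67 without NC TuD replicate 1 and 54 without its replicate 2, all SK-Hep1), and members called numbered 2 on the deposited log2 matrix, which adds SEMA6A. For the difference between lines, genes called came to 266 to 613 without 1 library, against 500 (310 without HepG2 NC TuD replicate 1, and 312, 266, 329 and 289 without SK-Hep1 miR-17 TuD replicates 1 and 2 and SK-Hep1 NC TuD replicates 1 and 2), and 1 member was called on the deposited log2 matrix (PLXNB2 lost). Members called in HepG2 ranged from 5 to 7, with SEMA4C gained in 4 settings and PLXNA1 in 1. Replicate numbers did not pair libraries: deviations of same-numbered libraries correlated at 0.045, -0.314 and -0.281 in HepG2 and -0.075 in SK-Hep1. Those of differently numbered HepG2 libraries of the 2 arms correlated at -0.103 to 0.351. Whether libraries of the arms share a batch under other numbers was not tested. With a replicate block 58 genes were called in SK-Hep1, 227 for the difference and 1 member for the difference (PLXNB2 lost). In SK-Hep1, the uncalled NRP2 changed sign with RLE factors and DESeq2 (0.00 each) and, like the uncalled PLXNA2 and SEMA3F, when some single library was left out: NRP2 ranged from -0.17 to 0.13, PLXNA2 from -0.17 to 0.15 and SEMA3F from -0.53 to 0.04. With the longest transcript in place of merged exons, 6 of 10 ranks by level were kept in HepG2 miR-17 TuD and 8 of 10 in HepG2 NC TuD. In HepG2 NC TuD, SEMA7A at 15.0 CPM per kb then lay below SEMA4C at 19.7 and PLXNA1 at 15.4. In SK-Hep1 miR-17 TuD it then lay at 9.96, below SEMA3D at 10.1. With any coding transcript, 4 members held an 8mer or 7mer-m8, against 3, and the member added was NRP1. The causes were not tested. SEMA3C in HepG2 and SEMA6A, PLXNB1 and PLXNC1 in SK-Hep1 rest on low counts, and changes there of the size seen for SEMA7A could be missed.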
